A study of Mus musculus with 8 samples.

Results

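Epithelial cells of the mouse tongue that carried transcripts of at least 3 of the 6 genes *Osr2*, *Cpxm2*, *Prlr*, *Pdgfc*, *Cdh4* and *Aknad1* were described across 8 single-cell libraries. They numbered 394 of 7430 non-cycling epithelial cells (5.30%), out of 12957 epithelial cells and 42550 cells in all. A cell counted as epithelial when it held 1000 to 5500 genes, at most 30000 unique molecular identifiers (UMIs, each a counted RNA molecule), at most 7% mitochondrial UMIs, no *Ptprc* UMI, and at least 0.5% of its UMIs in *Krt5*, *Krt14*, *Krt15*, *Krt13* and *Krt6a* together. It counted as non-cycling when at most 1 of the 6 mitosis genes *Mki67*, *Top2a*, *Cenpf*, *Nusap1*, *Aspm* and *Kif11* was detected. The 394 cells are called population cells below, and the 7036 remaining non-cycling epithelial cells are called other cells. *Osr2* itself was detected in 33.2% of population cells and *Prlr* in 66.2%, so the cells are referred to by the rule and not by these genes.

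The libraries came from tongue epithelium of young adult littermate mice 15 days after transgene induction, with 2 libraries for each of 4 genotypes. Control mice (N) carried Krt14-CreERT and LSL-rtTA, E mice carried tetON_E6-E7 in addition, Y mice tetON_YAP1S127A, and EY mice both. By the study's methods every mouse received tamoxifen into the tongue and doxycycline in the chow, controls included, and every mouse also carried an H2B-GFP reporter. Because the *Krt14* promoter drives the recombinase, the human papillomavirus oncogenes E6-E7 and the constitutively active YAP1 arose in basal epithelial cells and their descendants, and recombined cells were not separated from the rest. Cells were sorted for viability. The title of N2 carries 2 animal numbers, so that library may pool animals, and p-values measure only the spread between libraries, which may be technical.

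The tongue surface is a stratified squamous epithelium in which basal cells rest on a basement membrane, divide, and supply suprabasal cells that change their keratins as they move outwards. It is interrupted by papillae, taste buds and gland ducts, each with its own set of transcription factors and keratins. The prolactin receptor is a cytokine receptor that signals through the kinase JAK2 and the transcription factor STAT5, and *Osr2* encodes a zinc-finger transcription factor known for its part in palate and tooth formation.

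Library totals ranged from 46483469 to 102427359 UMIs. Population cells were unevenly spread, and with replicate 1 first the N libraries held 230 and 12 of them, the E libraries 77 and 53, the Y libraries 13 and 6, and the EY libraries 2 and 1, so that N1 held 58.4% of them. Cells of N2 and E2 were deep, and the upper limits on genes and UMIs removed 31.8% and 38.4% of their non-cycling epithelial cells, against 0.780% in E1. EY2 stood apart in cycling, with 78.3% of its epithelial cells called cycling against 29.9 to 43.5% elsewhere. Between libraries 235 cell barcodes were shared, and 5 of the 394 population cells, all in N1, had such a barcode. The rule depends on depth: the median population cell held 15880.5 UMIs and the median other cell 13497.5, and 27.9% against 18.2% held more than 20000.

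The 6 marker genes chose the cells, so their levels in population cells are a description with no test. Levels are given in CPM, UMI counts scaled to the same total in every set of cells. *Cpxm2* (chromosome 7, 132032687 to 132154739, minus strand; GRCm38 here and below) encodes a protein of the metallocarboxypeptidase family and stood at 108 CPM in population cells of N1, 83.9 in E1 and 70.3 in E2. *Prlr* (chromosome 15, 10177238 to 10349180, plus strand) stood at 111, 82.2 and 73.3 CPM in the same libraries. *Aknad1* (chromosome 3, 108739658 to 108782309, plus strand) stood at 105, 94.1 and 81.1 CPM. These 3 genes carried most of the marker UMIs and were each detected in 66.2 to 87.1% of population cells.

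*Osr2* (chromosome 15, 35296098 to 35303305, plus strand) was lower, at 29.0 CPM in N1, 17.8 in E1 and 22.4 in E2. *Pdgfc* (chromosome 3, 81036416 to 81214040, plus strand), a growth factor gene of the PDGF family, stood at 19.5, 22.05 and 9.27 CPM. *Cdh4* (chromosome 2, 179442431 to 179899373, plus strand), which encodes R-cadherin, stood at 24.98, 19.5 and 16.2 CPM. These 3 genes were each found in 26.4 to 33.2% of population cells. In cells with *Ptprc* and keratin under 0.5%, which should lack an epithelial programme, the 6 markers ranged from 0.04 to 0.78 CPM over all libraries, at a median depth of 6968 UMIs. The 1024 cells without *Ptprc* and with keratin under 0.5% held more of each marker. Pooled over all libraries, *Osr2* was 4.70 CPM in them against 2.47 in other non-cycling epithelial cells, and *Pdgfc* 4.33 against 1.39. The remaining markers were lower there, with *Prlr* at 0.741 against 11.0 CPM and *Aknad1* at 7.04 against 21.3. The markers were thus not confined to cells that counted as epithelial.

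Of the non-cycling epithelial cells, 4169 held none of the 6 markers, 2089 held 1, 778 held 2, 302 held 3, 78 held 4, 13 held 5 and 1 held 6. The limit of 3 therefore runs through a falling series, and not through a gap. Just outside the limit, N1 cells with 2 markers held *Rora*, an orphan nuclear receptor gene, at 157 CPM, and just inside it those with 3 markers held 187 CPM. Each marker was also examined in cells chosen by the other 5 alone. In N1, *Prlr* was 63.0 CPM in cells with at least 2 of the other markers and 14.1 CPM in cells with none, and *Cpxm2* was 72.2 and 12.2 CPM. In Y1 the same split gave 31.1 and 9.90 CPM for *Cpxm2*, 9.26 and 0.101 CPM for *Osr2*, but 5.76 and 3.11 CPM for *Prlr* and 0.646 and 0.797 CPM for *Cdh4*. In N1, E1 and E2 all 6 genes were higher in cells with at least 2 of the others. In Y1 all but *Cdh4* were, which was near 0 in both sets there. The markers had been chosen from these data, so this is a description and nothing is read from it. The sets also differed in depth, with medians of 23405 and 17093.5 UMIs in the split for *Osr2* in Y1.

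Population cells kept the keratinocyte genes that the rule did not use. *Trp63*, the transcription factor of stratified epithelia, was 190 CPM in population cells of N1 and 215 in other cells, 136 against 205 in E1, and 310 against 307 in E2. *Epcam* was 79.5 against 115 CPM in N1, and *Cdh1* 65.8 against 74.8. *Itga6*, the hemidesmosome integrin of basal cells, was 318 against 185 CPM in N1, 344 against 237 in E1 and 317 against 202 in E2. The oral transcription factors *Barx2* (285 against 254 CPM in N1), *Pitx1* (278 against 280) and *Sox2* (129 against 108) were at like levels in both sets.

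The genes that set population cells apart were listed from N1, E1 and E2, the libraries with at least 20 of them, by the log2 ratio of CPM + 1 between population and other cells of the same library. Of 5255 genes at 20 CPM or more, 21 were at least 2-fold higher by the median of the 3 libraries (0.400%) and 70 at least 2-fold lower (1.33%), with a median over all genes of −0.02. The choice of the cells used this contrast, so nothing is read from these counts. Of the 20 highest and 10 lowest genes outside the rule, 19 and 10 are named here.

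Genes of transcriptional regulators were among the highest. *Rora* (chromosome 9, 68653786 to 69388246, plus strand), the orphan nuclear receptor, was 205 CPM in population cells and 80.5 in other cells of N1, 95.8 and 35.7 in E1, and 127 and 30.6 in E2, a median log2 ratio of 1.40. It was higher in population cells in 8 of 8 libraries, but N1, E1 and E2 had chosen it by that sign. Y2, EY1 and EY2 held only 6, 2 and 1 population cells, so nothing is read from this count. *Ikzf2*, a zinc-finger factor, had a median log2 ratio of 1.63, the bZIP factor *Hlf* 1.49, the homeobox gene *Meis1* 1.48, the imprinted zinc-finger gene *Peg3* 1.17 and the clock repressor *Nr1d1* 1.04.

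Genes of the cell surface, cytoskeleton and secreted proteins made up the next set. *Ahnak2* (chromosome 12, 112772194 to 112802657, minus strand), which encodes a very large scaffold protein, was 125 against 29.4 CPM in N1, 54.3 against 20.4 in E1 and 64.9 against 13.2 in E2, with the highest median log2 ratio of the 20, 2.05. *Sema5a* (chromosome 15, 32244810 to 32696341, plus strand), a guidance semaphorin, was 45.9 against 12.7, 41.5 against 12.5 and 40.1 against 7.35 CPM, a median of 1.78. *Cpe* (chromosome 8, 64592542 to 64693054, minus strand), the carboxypeptidase that trims prohormones and belongs to the same enzyme family as *Cpxm2*, was 65.5 against 20.7, 47.5 against 22.1 and 51.0 against 13.4 CPM, a median of 1.62. The actin-bundling gene *Fscn1* followed at 1.32, the matrix gene *Tgfbi* at 1.18, the calcium channel gene *Itpr2* at 1.17, the membrane progestin receptor gene *Paqr5* at 1.15, the coagulation initiator *F3* at 1.10 and the glutamine synthetase gene *Glul* at 1.04. The others were *2610528A11Rik* at 1.56, *Gipc2* at 1.21, the lincRNA *Gm20186* at 1.71 and *Gm15987* at 1.05, which is annotated as antisense to another gene and stood at −0.0025 when every cell was thinned to 5000 UMIs.

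**Figure D1:**
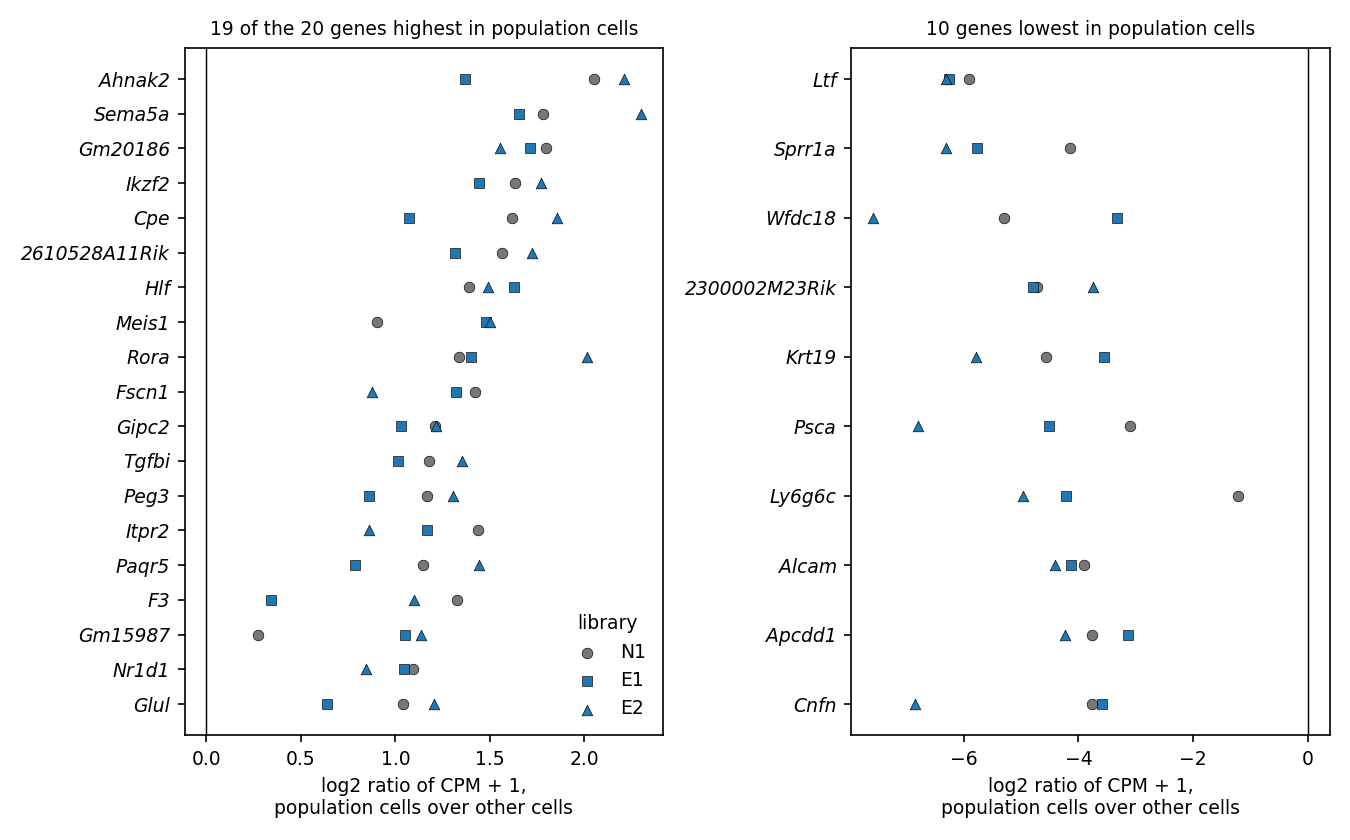
The left panel plots 19 of the 20 genes highest in population cells and the right panel the 10 lowest, each as the log2 ratio of CPM + 1 between population cells and other non-cycling epithelial cells, with 1 symbol for each of the libraries N1, E1 and E2. The 3 libraries fell on the same side of 0 for every gene by construction, from a median of 2.05 for *Ahnak2* to −6.25 for *Ltf*.

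The lowest genes were nearly silent in population cells, so their UMI levels say more than a ratio. *Ltf*, the secreted iron-binding protein of glands, was 0.287 CPM in population cells of N1 and 0 in E1 and E2, against 76.6, 75.01 and 77.7 CPM in other cells. *Krt19*, a keratin of taste buds and ducts, was 0 in population cells of all 3 libraries, against 22.7, 10.7 and 54.2 CPM. *Sprr1a*, a cornified envelope gene, was 2.87, 0 and 0 CPM against 67.2, 53.2 and 78.6. The secreted protein gene *Wfdc18*, the surface protein gene *Psca*, the adhesion gene *Alcam*, the Wnt inhibitor gene *Apcdd1*, the cornified envelope gene *Cnfn*, *Ly6g6c* and *2300002M23Rik* made up the rest, at 0 to 8.48 CPM in population cells.

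The libraries N2, Y1 and Y2 had too few population cells to choose these genes, so they serve as a look at the same ratio in other cells. Of the 20 higher genes, 17 were higher in population cells of N2, 19 in Y1 and 13 in Y2. Of the 10 lower genes, 10, 10 and 9 were lower. Over all 5255 genes the split was even, with 2656 higher and 2598 lower in N2. *Hlf* went the other way in Y1, at 3.34 CPM in population cells and 16.2 in other cells. These libraries hold 12, 13 and 6 population cells, so single UMIs weigh heavily in them. The lower genes reached 20 CPM only through other cells, which favours a lower value in so few population cells. Nothing is read from these counts.

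**Figure D2:**
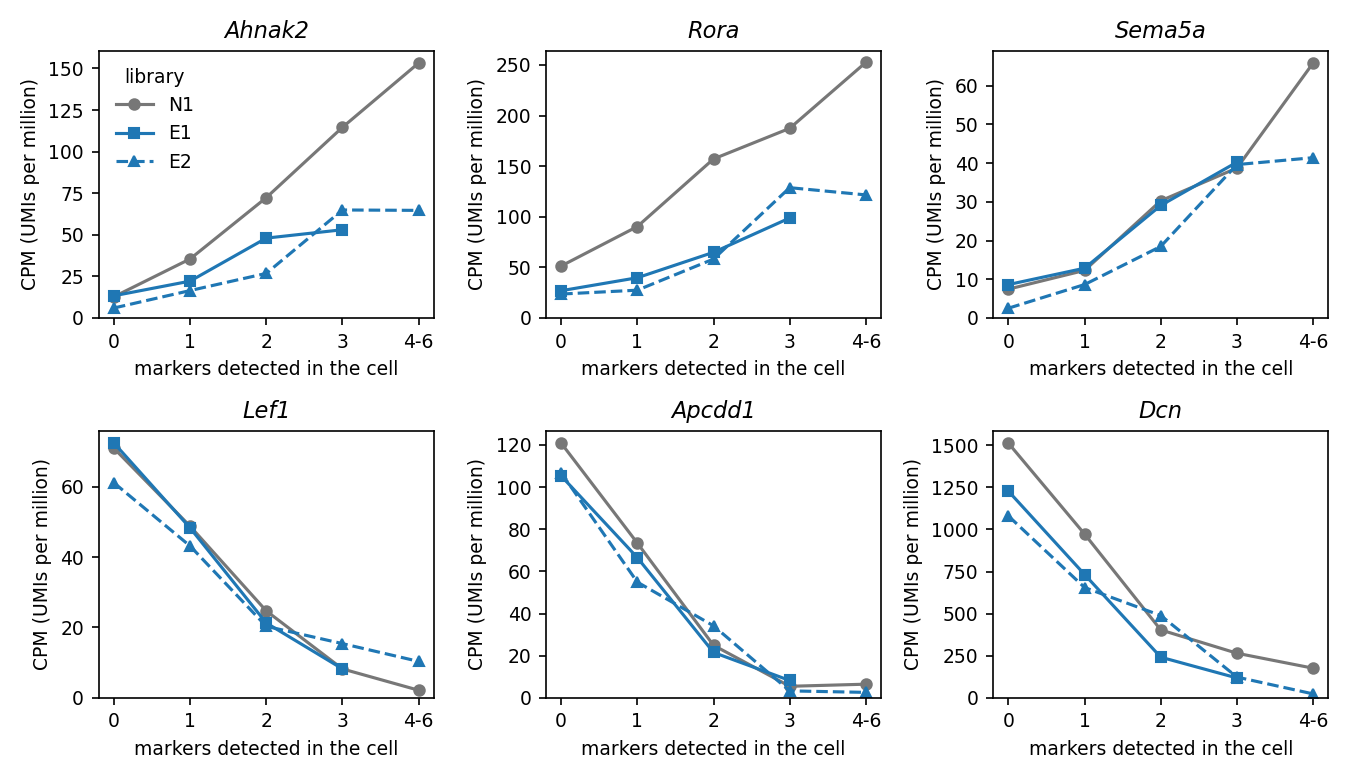
Each panel plots 1 gene's CPM (vertical axis) against the number of the 6 markers detected in a cell (horizontal axis) for libraries N1, E1 and E2, with points drawn only where at least 10 cells held that number. In N1 *Ahnak2* climbed from 12.8 CPM in cells with no marker to 153 in cells with 4 or more, and *Lef1* went down from 70.9 to 2.16.

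The same genes were graded over the number of markers, without a step at 3. In N1, *Rora* was 51.3 CPM in cells with no marker, 90.3 with 1, 157 with 2, 187 with 3 and 253 with 4 or more. *Sema5a* was 7.44, 12.3, 30.3, 38.7 and 65.9 CPM over the same series. *Krt14*, the basal keratin, lay between 7268 and 9174 CPM with no such order. The number of markers found in a cell depends on its depth, and the CPM of another gene is relative to it.

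The other lineages of the tongue surface were low in population cells. A gene counted as reaching 20 CPM when either set of cells did, so genes low in population cells entered through other cells. Nothing is read from the counts of lower genes, which this filter and the choice of the cells favour. Of 11 papilla genes, 3 reached 20 CPM and all 3 were at least 2-fold lower by the median: *Lef1*, the nuclear partner of Wnt signalling, was 6.60 against 56.6 CPM in N1, *Foxq1* 10.6 against 52.1, and *Krt24* 59.4 against 178. The papilla regulators *Hoxc13*, *Msx2* and *Lhx6* and the Wnt inhibitor *Notum* were at 0 to 0.772 CPM in population cells of N1, E1 and E2, against 2.20 to 16.6 in other cells. Of 15 taste genes, 2 reached 20 CPM and both were lower, *Krt19* and *Krt18* (0.861 against 22.2 CPM in N1). Of 11 gland and duct genes, 4 reached 20 CPM and all 4 were lower, among them *Krt7* at 5.17 against 13.7 CPM in N1. *Tbx3*, a T-box factor, was 6.60 against 45.4 CPM in N1. The BMP-responsive genes *Id1* (186 against 582 CPM in N1) and *Id3* (204 against 577) were lower in N1, E1 and E2.

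Among markers of cells outside the epithelium, those of endothelium and muscle were at or near 0 in population cells, and some others were not. Endothelial and muscle genes summed to 0 CPM in population cells of N1, and *Col1a1*, *Lum* and *Pdgfra*, which define fibroblasts, were at 0 there. *Dcn*, which is on the fibroblast list, was nevertheless 241 CPM in population cells of N1 and 1167 in other cells, 125 against 950 in E1 and 93.4 against 827 in E2, and it went down with the number of markers from 1512 CPM to 176 in N1. The 7 immune genes outside the rule summed to 22.1 CPM in population cells of N1 against 54.4 in other cells, and to 120 against 141 in Y1. The erythroid list summed to 32.2 CPM in population cells of N1 against 266 in other cells, and to 64.0 against 90.4 in N2. Merkel and neuroendocrine genes summed to 17.8 against 34.9 CPM in N1.

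The partners of the marker genes were described from lists. Of the prolactin receptor list, 3 of 11 genes outside the rule reached 20 CPM and none was 2-fold higher. *Socs3*, a feedback inhibitor of cytokine receptors, was 117 against 79.7 CPM in N1, 123 against 75.4 in E1 and 264 against 81.4 in E2, and *Jak2*, the kinase of the receptor, was 14.9 against 14.6 CPM in N1. *Stat5a* was 5.17 against 3.62 CPM in N1 and 6.95 against 7.49 in E2, and *Stat5b* 10.9 against 5.54 and 6.95 against 8.08, so neither kept a direction. *Pdgfa* was 41.6 against 38.0 CPM in N1, and the receptor *Pdgfrb* was at 0, as *Pdgfra* was. Among metallocarboxypeptidases only *Cpe* was 2-fold higher, and *Cpd* was 48.2 against 34.5 CPM in N1. Of 24 Wnt genes, 8 reached 20 CPM and none moved 2-fold. The Wnt antagonist *Sfrp1* was 91.0 against 55.2 CPM in N1, and the Wnt response gene *Axin2* 2.30 against 11.2.

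Population cells were not of 1 layer. *Krt13* and *Krt4*, the keratins of differentiating non-cornified oral epithelium, together made up a median of 0.279% of UMIs in population cells of N1, with a range from 0 to 6.40%, against a median of 0.0758% in other cells. The medians were 0.292% against 0.0796% in E1 and 0.228% against 0.0543% in E2. *Krt13* is among the genes of the rule's keratin sum, and *Krt4* is not. Of the 10 genes of the suprabasal list outside the rule that reached 20 CPM, none was 2-fold higher and 2 were 2-fold lower. Their median log2 ratio was −0.30. The list's summed CPM was higher in population cells of N1 (4783 against 3395) and E1 (5273 against 3153). It was lower in those of N2 (956 against 2339), E2 (1284 against 2088), Y1 (1798 against 3465) and Y2 (2391 against 5446). Cells in which *Krt13* and *Krt4* exceeded *Krt5* and *Krt14* made up 70 of 230 in N1 (30.4%), against 15.9% of other cells, 23.4% against 11.7% in E1, and 13.2% against 16.4% in E2. In N1 these differentiating cells held *Col17a1* at 90.8 CPM and *Itga6* at 148, against 564 and 417 CPM in the basal ones. *Prlr* was at 126 and 102 CPM in the 2 kinds and *Cpxm2* at 119 and 102. Other genes were lower in the differentiating cells of N1. *Aknad1* was 73.7 against 123 CPM, *Osr2* 17.1 against 36.0, *Rora* 138 against 244 and *Sema5a* 39.6 against 49.7. Not all of this held in E1 and E2. *Prlr* was lower in the differentiating cells of E1 (71.3 against 86.9 CPM) and E2 (56.9 against 75.9). *Osr2* was higher in those of E2 (45.6 against 18.8), and *Rora* was 125 against 127 CPM there. *Cpxm2*, *Aknad1* and *Sema5a* kept their direction in E1 and E2.

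The share of cells that met the rule was compared between genotypes. The rule counts detected markers, so fewer cells of a kind and less marker RNA per cell cannot be told apart by it. As counted, they made up 10.3% (exact 95% interval 9.06 to 11.6) and 4.62% (2.41 to 7.92) of the non-cycling epithelial cells of the N libraries, and 3.03% (2.40 to 3.77) and 14.3% (10.9 to 18.3) of those of the E libraries, replicate 1 first. With the YAP transgene they made up 1.44% (0.768 to 2.45) and 1.06% (0.390 to 2.29) in the Y libraries, and 1.79% (0.217 to 6.30) and 0.228% (0.00577 to 1.26) in the EY libraries. All 4 libraries with YAP1S127A lay below all 4 without it. The means were 1.13% ± 0.669 and 8.06% ± 5.21 (SD, n = 4 each), a difference of −6.94 percentage points, with a two-sided exact permutation p of 0.0286, the smallest that 4 against 4 can give, and 0.0571 after Benjamini-Hochberg adjustment over the 2 transgenes. For E6-E7 the difference was 0.492 points (exact permutation p = 0.886).

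Depth differed between libraries, so the shares were also taken after every cell was thinned at random to 5000 UMIs. A single draw left 45 of 2210 cells in N1 (2.04%), 4 of 2495 in E1 (0.160%), 3 of 350 in E2 (0.857%) and 1 cell each in Y1 (0.114%), Y2 (0.182%) and EY2 (0.248%). None of 239 cells in N2 and none of 78 in EY1 passed, which allows shares of up to 1.26% and 3.85%. The difference for YAP was then −0.627 points (exact permutation p = 0.343, adjusted 0.686) and that for E6-E7 −0.267 points (exact permutation p = 0.83). Without N1 they were −0.203 and 0.217 points. The draw itself mattered: over 50 draws N2 gave 0 to 3 cells and E1 5 to 15. The mean shares over the 50 draws were 1.88 and 0.377% for the N libraries and 0.358 and 1.01% for the E libraries, against 0.110 and 0.0511% for the Y and 0.0513 and 0.0347% for the EY libraries. On these means all 4 libraries with YAP1S127A again lay below the others, by −0.843 points (exact permutation p = 0.0286, adjusted 0.0571). The planned comparison was the single draw, and the mean over 50 draws was not planned. Neither effect passed the adjusted threshold of 0.05 at any of these settings, which 4 libraries against 4 cannot reach after adjustment over 2 unless both reach the smallest p. Intervals and limits cover counting error alone.

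**Figure D3:**
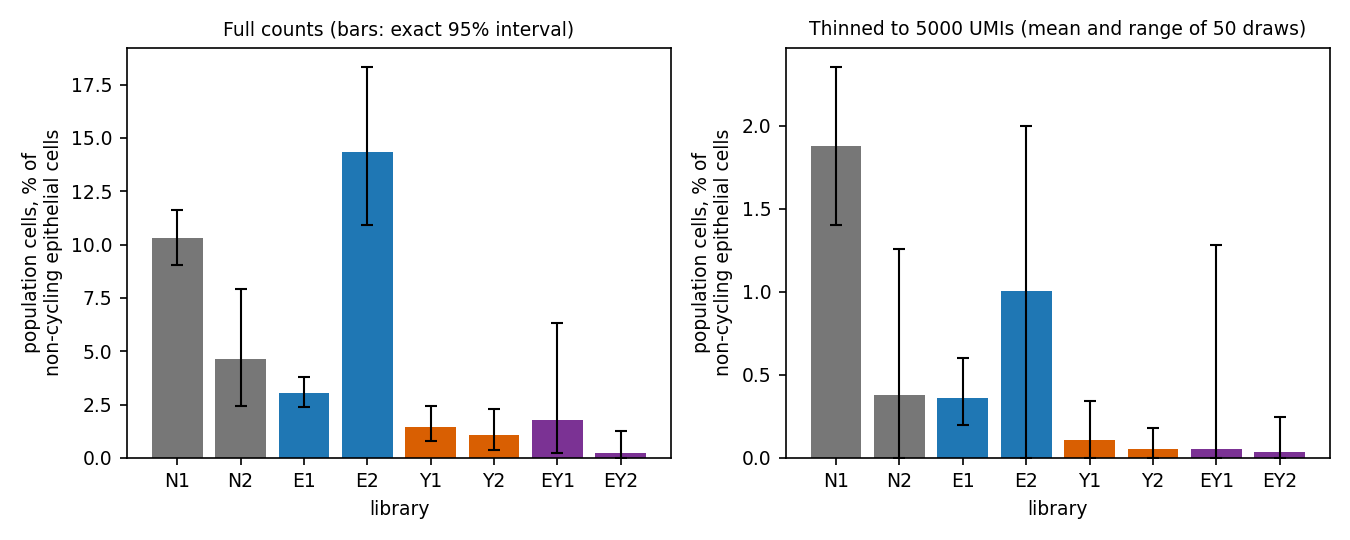
Bars give the share of non-cycling epithelial cells (%) that were population cells in each library, by full counts with the exact 95% interval (left) and after thinning to 5000 UMIs as the mean and range of 50 draws (right). The libraries with YAP1S127A (Y1, Y2, EY1, EY2) stood between 0.228 and 1.79% by full counts, and those without between 3.03 and 14.3%.

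A measure that needs no choice of cells was the level of each marker over all non-cycling epithelial cells, where fewer cells of a kind and less RNA per cell cannot be told apart. *Prlr* was 27.8 and 9.61 CPM in the N libraries and 16.03 and 22.8 in the E libraries, and 3.81 and 3.74 CPM in the Y and 4.02 and 0.735 in the EY libraries (CPM of the scaled library size, replicate 1 first). Every library with YAP1S127A was below every library without it. *Prlr* fell by 2.73 on the log2 scale with YAP (SE 0.46), with an adjusted p of 0.0111 by edgeR's quasi-likelihood test with Benjamini-Hochberg adjustment over 11826 genes. *Cdh4* was 4.89 and 2.45 CPM in N, 3.83 and 4.69 in E, 0.984 and 0.0985 in Y, and 0 and 0.368 in EY libraries. It fell by 2.99 (SE 0.59, adjusted p = 0.0179).

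The other 4 markers did not pass. The YAP effect was −1.36 for *Osr2* (SE 0.46, adjusted p = 0.0837), −0.71 for *Cpxm2* (SE 0.30, 0.148), −0.93 for *Pdgfc* (SE 0.49, 0.221) and −0.03 for *Aknad1* (SE 0.19, 0.946). *Aknad1* stood at 30.5 CPM in N1 and N2 and 30.5 CPM in Y2, which makes it the marker with the smallest difference. Thus 2 of 6 markers were lower with YAP and none higher, where 4.07% of all genes tested were lower and 6.79% higher. The markers came from these data, and 360 of the 394 population cells lay in N1, E1 and E2, which lack YAP. A lower level with YAP is favoured by that choice, so nothing is read from this count. The adjusted p values of the markers do not account for the choice. None passed for E6-E7, with estimates from −0.48 for *Cpxm2* to −0.06 for *Osr2*. The count of 2 was 3 without N2 and 1 without N1, E1 or EY2, since *Cdh4* then reached adjusted p values of 0.0503 to 0.062, and *Prlr* passed in every one of the 8 fits that left out 1 library (adjusted p at most 0.0441).

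**Figure D4:**
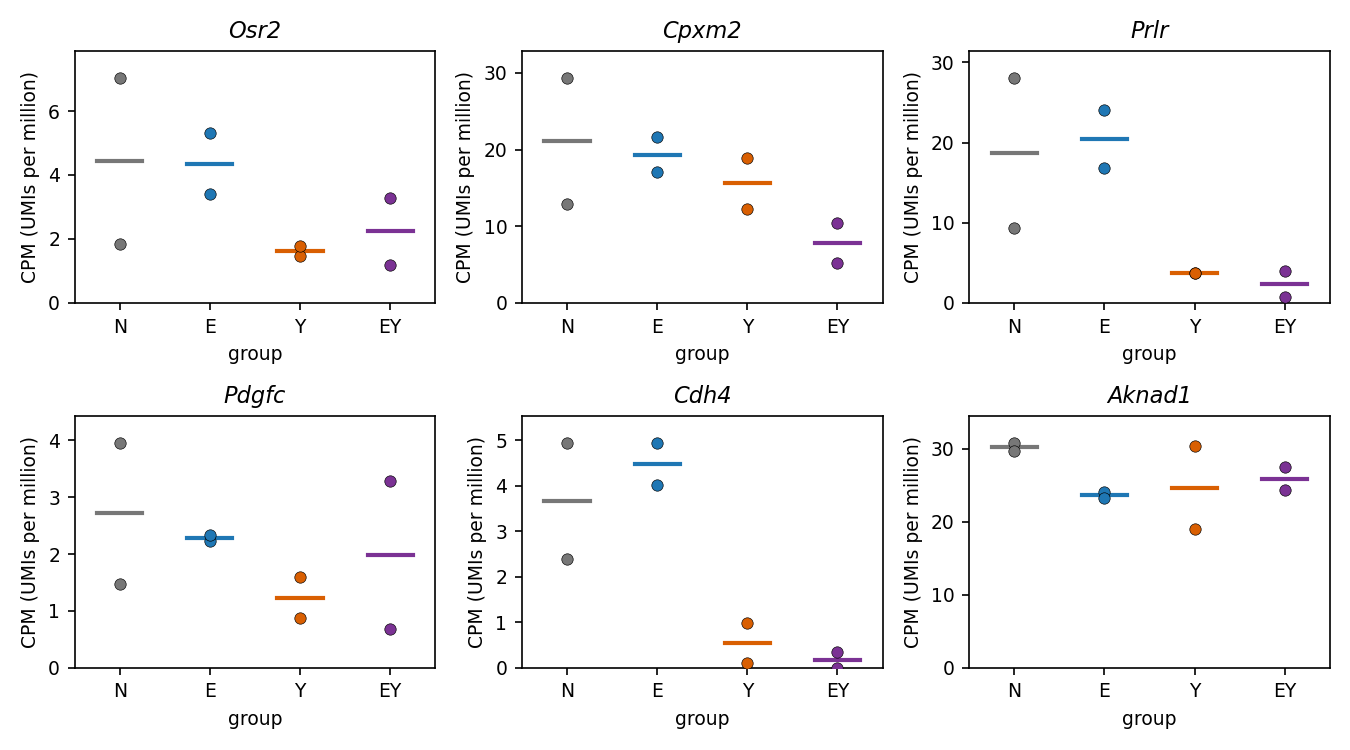
Each panel plots 1 marker's CPM over all non-cycling epithelial cells, with a point for each library and a line at the mean of the 2 libraries of a group. *Prlr* and *Cdh4* were lower in all Y and EY libraries than in all N and E libraries, and *Aknad1* was not.

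Of the 20 genes higher in population cells, 2 were lower with YAP over all non-cycling epithelial cells and 3 were higher. Over all genes tested in that fit, 4.07% were lower and 6.79% higher. The 20 genes had been chosen in libraries without YAP, so their counts are a description. *Rora* was 93.7 and 50.9 CPM in N, 36.2 and 43.6 in E, 20.9 and 27.5 in Y, and 17.4 and 9.93 in EY libraries, and fell by 1.61 (SE 0.24, adjusted p = 0.0072). *F3*, which is on the list of YAP targets, rose by 3.72 (SE 0.29, adjusted p = 0.00126), *Gm20186* by 1.24 (SE 0.32, 0.0412) and *Glul* by 0.82 (SE 0.16, 0.0181). Calls for *Gm20186* and *Glul* were lost when any of several single libraries was left out, at adjusted p values of up to 0.131 and 0.0661. The called genes among the 20 thus went both ways with YAP, and nothing more is read from their counts. Over the 8 libraries, the genes whose level followed the sum of the 6 markers most closely, among 7182 at 10 CPM or more, were *Fbxo22* (Pearson r = 0.97), *Atp2a2* (0.96), *Arhgef26* (0.94), *Becn1* (0.93) and *Ormdl2* (0.93), a description over libraries that share their genotypes.

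Population cells themselves could be compared only between E and N, because Y1 alone of the YAP libraries held at least 10 of them. UMIs were summed over population cells of N1, N2, E1, E2 and Y1, and 8969 genes were tested in a fit with 2 residual degrees of freedom. In E, 45 genes were higher (0.502%) and 5 lower (0.0557%), 0.557% together, by edgeR's quasi-likelihood test at an adjusted p under 0.05, and 501 had an unadjusted p under 0.05. DESeq2 called 15, 14 higher and 1 lower, and edgeR called 27 genes without N1 and 139 without N2. N2 enters with 12 cells, so its CPM moves in steps of about 3.41 per UMI.

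Interferon-stimulated genes were the largest set among the higher ones, with 10 of 12 tested members called, a median log2 fold change of 3.82, and a median of −0.01 over all genes. *Isg15* (chromosome 4, 156199424 to 156200818, minus strand), a ubiquitin-like protein, was 20.5 and 6.83 CPM in the N libraries and 566 and 407 in the E libraries, and rose by 4.75 (SE 0.34, adjusted p = 0.000373). *Ifit1* (chromosome 19, 34640871 to 34650009, plus strand), a sensor of foreign RNA, was 2.05 and 3.41 CPM in N1 and N2 and 85.3 and 73.3 in E1 and E2, and rose by 5.12 (SE 0.38, adjusted p = 0.000373). *Irf7*, the factor that amplifies the response, was 4.69 and 6.83 against 81.0 and 53.2 CPM (log2 fold change 3.74). *Ifi44* (4.35) and *Rsad2* (5.19) of the list and *Slfn2* (4.25) and *Apol9a* (3.91) outside it were among the largest rises, where *Apol9a* shares much of its sequence with *Apol9b*, also called. *Rsad2*, *Slfn2*, *Irf7* and *Apol9a* no longer passed without N1 (adjusted p of 0.0943 to 0.409), and *Rsad2* and *Slfn2* did not without E1 (0.851 and 0.757), nor *Slfn2* without E2 (0.0837).

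Genes of the G1/S transition and DNA replication were the second set, with 8 of 17 tested called and a median of 2.49. *Mcm6*, a subunit of the replicative helicase, was 10.2 and 3.41 CPM in N and 92.9 and 58.6 in E, and rose by 3.001 (SE 0.38, adjusted p = 0.00684). *Mcm2*, *Mcm3*, *Mcm4* and *Mcm5* rose by 2.49 to 2.91, *Gins2* by 2.08, *Ung*, which removes uracil from DNA, by 2.90 and *Uhrf1*, which maintains DNA methylation, by 3.47. The cells had been chosen for at most 1 mitosis gene, and no G1/S gene was part of that rule. Meiotic genes also appeared: *Zcwpw1* (chromosome 5, 137787798 to 137822621, plus strand), whose protein reads histone methylation, was 1.76 and 0 CPM in N and 43.5 and 31.6 in E (log2 fold change 4.47, adjusted p = 0.00376, 0.0885 without N1), *Syce2*, of the synaptonemal complex, 6.73 and 6.83 against 46.0 and 32.4 (2.52), and *Smc1b*, the meiotic cohesin, 0 in both N libraries and 14.5 and 15.4 in E.

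The lower genes were few. *H19* (chromosome 7, 142575529 to 142578143, minus strand), an imprinted lincRNA, was 102 and 126 CPM in N1 and N2 and 35.0 and 27.8 in E1 and E2, and fell by 1.82 (SE 0.25, adjusted p = 0.012). *Gstm2*, a glutathione transferase gene, was 138 and 147 against 52.0 and 56.3 CPM (−1.38, adjusted p = 0.0238). *Ptgs2*, the inducible prostaglandin synthase, was 75.3 and 37.6 against 17.1 and 11.6 (−2.17, adjusted p = 0.0253). The call for *H19* was lost without E2 (adjusted p = 0.0857), that for *Ptgs2* without N1 (0.49) or E2 (0.133), and that for *Gstm2* without N1 (0.0694), E1 (0.149) or E2 (0.113). The calls for *Ptgs2* and *Gstm2* were also lost by DESeq2 (0.41 and 0.178) and in cells with at least 2 markers (0.311 and 0.37), and those for *H19* and *Gstm2* with no upper limits on genes and UMIs (0.118 and 0.449). *Colec12* was 69.98 and 3.41 CPM in N and 0 in both E libraries, a call lost by DESeq2, with at least 2 markers (0.124) and without E2 (0.0561), and *Chil4* was 120 CPM in N1 alone and at most 0.772 elsewhere.

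The 6 markers chose the cells, so nothing is read from their levels in E and N population cells. Of the 20 higher genes, which N1, E1 and E2 had chosen, none passed between E and N, with a median of −0.20, and this does not show that their levels were alike. Nor did any member of the lists for basal, suprabasal, papilla, Wnt, Notch, YAP target or hypoxia genes.

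**Figure D5:**
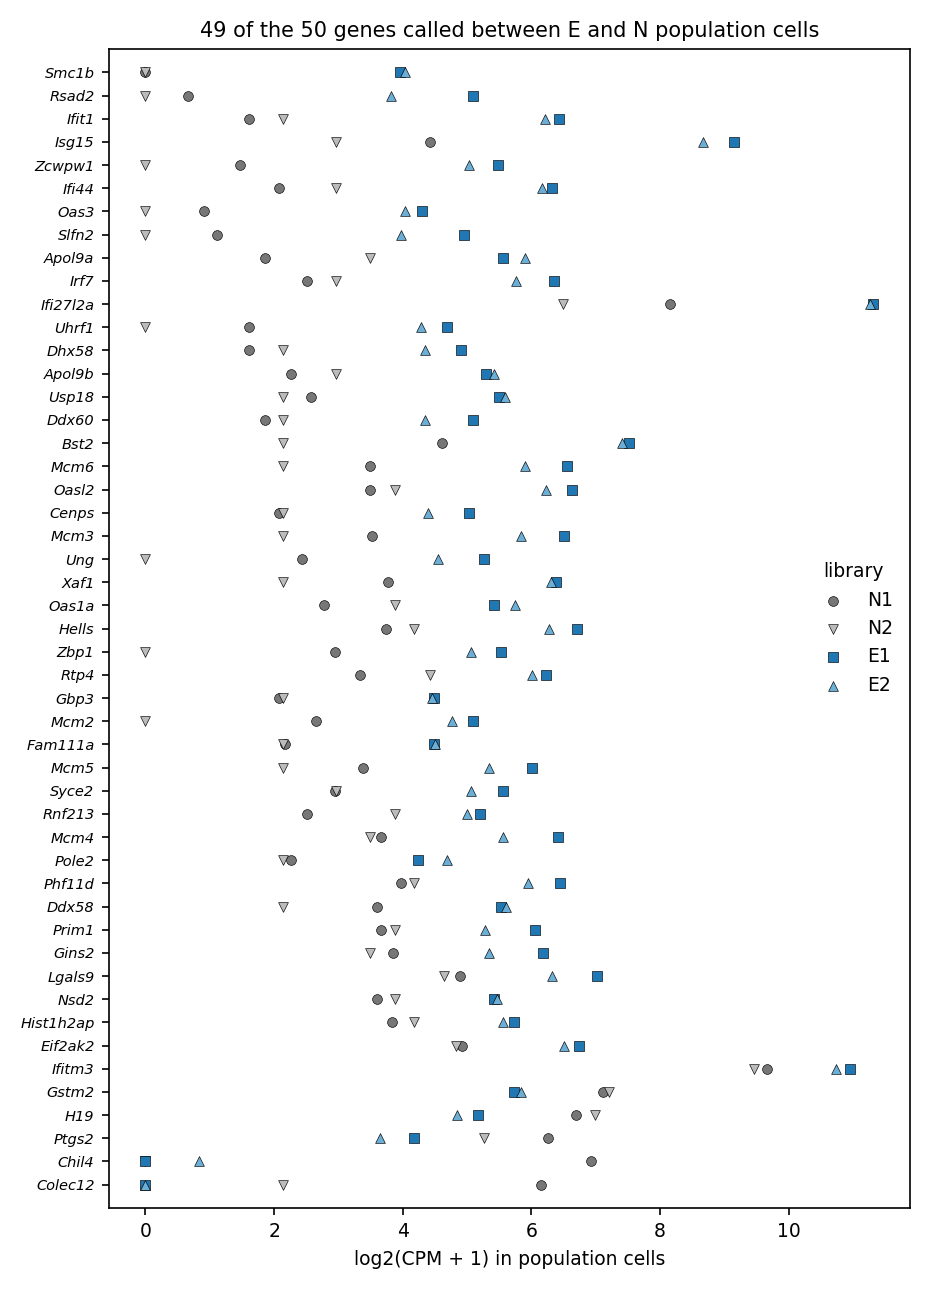
Points give log2(CPM + 1) in population cells for 49 of the 50 genes called between E and N, ordered by log2 fold change, with 1 symbol for each of N1, N2, E1 and E2. The E libraries lay above both N libraries for 44 of these genes and below both for 4, and *Chil4* overlapped. The genes were plotted because they had been called, which favours such a separation. The share over all genes was not counted, so nothing is read from these numbers.

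The same sets rose in all non-cycling epithelial cells, where 10 of 14 interferon genes and 16 of 18 G1/S genes were higher with E6-E7, where 1.45% of 11826 genes were higher and 0.0761% lower. The difference between population and other cells was therefore tested gene by gene, in a fit with each library as a block. Of 12115 genes, 14 had a larger E6-E7 effect in population cells (0.116%) and 13 a smaller one (0.107%), 0.223% together. For the YAP effect, 28 had a larger (0.231%) and 20 a smaller one (0.165%), 0.396% together, but Y1 alone stood on the YAP side and was assumed to vary like the other libraries. *Isg15* was among the genes with a larger E6-E7 effect: in population and other cells it was 20.1 and 68.99 CPM in N1 and 6.74 and 31.9 in N2, but 563 and 685 CPM in E1 and 408 and 505 in E2. The difference of the effects was 1.53 on the log2 scale (SE 0.23, adjusted p = 1.6e-07), and it lay in the N libraries, where population cells held less. *Ifit1* behaved alike, at 2.01 and 16.6 CPM in N1 and 84.8 and 135 in E1, with a difference of 2.36 (SE 0.46, adjusted p = 0.000653). Both calls were lost without N1 (adjusted p of 0.306 and 0.954) and in cells with at least 2 markers (both 1, with differences of 0.02 and 1.21), and that of *Ifit1* without E2 (0.0527). The count of 27 genes was 115 without N1, 48 without N2, 10 without E2 and 4 without Y1.

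For the YAP transgene the question was taken to a wider set, the 1172 non-cycling epithelial cells with at least 2 markers, in 7 libraries that held at least 10 of them. Of 9096 genes, 265 were higher with YAP (2.91%) and 101 lower (1.11%). *Prlr* and *Cdh4* were among the lower, and since the cells were chosen by these genes nothing is read from them. Between the sides the chosen cells also differ in marker level: *Prlr* was 78.01 and 36.5 CPM in the N and 55.8 and 59.9 in the E libraries, and 18.8 and 15.1 in the Y libraries and 2.75 in EY2, and what part this has in the values that follow was not tested. Of 11719 genes, 5 had a larger YAP effect in these cells than in the remaining non-cycling epithelial cells and 11 a smaller one. The changes below are not put forward as particular to these cells.

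The 20 companion genes had been chosen as high in marker-positive cells of N1, E1 and E2, which all lack YAP, so that a lower level with YAP is favoured by the choice and nothing is read from their count, 3 lower and 1 higher. *Rora* was 178 CPM in both N libraries, 71.9 and 95.1 in E, 35.7 and 47.03 in Y and 19.2 in EY2, a log2 fold change of −2.12 (SE 0.20). *Sema5a* was 30.2 to 41.9 CPM without and 13.2 to 21.3 CPM with YAP (−1.08, SE 0.24). *F3*, which went against the choice, rose by 2.60 (SE 0.29, adjusted p = 0.00235). For E6-E7 the log2 fold change of *Rora* was −1.10 (SE 0.19, adjusted p = 0.0494), in a fit whose calls were all lost without N1, N2 or E1.

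Among called genes whose libraries did not overlap between the sides, the 8 largest falls with YAP in these cells ran from −2.66 to −4.07 on the log2 scale. *Igfbp5*, which binds insulin-like growth factors, was 169 and 123 CPM in N, 124 and 249 in E, 7.51 and 21.6 in Y libraries and 0 in EY2, and fell by 3.81 (SE 0.52, adjusted p = 0.00476). *Cxcl14*, an epithelial chemokine, was 46.5 to 103 against 0 to 11.3 CPM (−3.37), *Smoc2*, a matricellular protein, 25.3 to 36.7 against 0 to 7.51 (−2.92), *Egfl6* 18.2 to 55.7 against 0 to 3.76 (−4.07), and *Spry2*, an inhibitor of receptor tyrosine kinases, 15.4 to 25.99 against 0 to 3.76 (−2.97). *Tlx1* (−3.15), *Slitrk6* (−3.11) and *Hs3st6* (−2.66) were also lower, as were, from the lists, the Wnt antagonists *Sfrp1* (−2.21) and *Dkk3* (−2.25) and the progenitor factor *Sox2* (−0.85). The lists went both ways: of 13 tested Wnt genes 2 were higher and 2 lower. Of 13 tested oral patterning factors 1 was higher and 1 lower. Over all genes tested 2.91% were higher and 1.11% lower, and nothing is read from these counts. With 3 markers and no upper limits, *Cxcl14*, *Spry2*, *Slitrk6*, *Smoc2*, *Hs3st6* and *Tlx1* kept their sign and had adjusted p values of 0.0597 to 0.277. With 1 library left out, the call for *Egfl6* was lost without Y1 (0.0514) or EY2 (0.109), that for *Spry2* without N2, Y1 or EY2 (0.0515 to 0.071), that for *Slitrk6* without N2, Y1, Y2 or EY2 (0.0603 to 0.0903) and that for *Hs3st6* without N2 (0.0519) or EY2 (0.0691).

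The 8 largest rises, chosen in the same way, ran from 5.13 to 8.88. *Crct1*, of the epidermal differentiation complex, was 0 to 2.88 CPM in the N and E libraries and 132, 874 and 726 in Y1, Y2 and EY2 (8.02, SE 0.70, adjusted p = 0.00104). *Orm1*, an acute-phase protein gene, was at most 0.25 CPM without YAP and 14.4, 31.0 and 168 with it (8.88). *S100a7a* (6.85), *Cryab* (6.24), *Mirt1* (6.03), *Klk12* (5.77), *Slc16a3* (5.49) and *Wfdc5* (5.13) followed. Calls were lost without EY2 for *Wfdc5* (adjusted p = 0.0636), *Klk12* (0.0756) and *Slc16a3* (0.0518), and without N1 for *Cryab* (0.0579). Of the hypoxia and glycolysis list 7 of 11 tested rose, with *Egln3*, an oxygen-sensing hydroxylase, at 7.96 to 13.5 CPM without and 164 to 420 with YAP (4.50), and of the YAP targets 5 of 18, *F3*, *Ccn1*, *Axl*, *Amotl2* and *Crim1*. Over all non-cycling epithelial cells, 12 of 13 and 8 of 19 of these lists rose. *S100a8*, a granulocyte gene that keratinocytes can also express, was the only 1 of 3 tested immune genes to rise, at 0.751 to 11.5 CPM without YAP and 58.2, 0.941 and 618 in Y1, Y2 and EY2, and its part in these values was not tested. The count of 366 genes was 68 without EY2, 142 without Y2, 168 without N2 and 188 without E1. With E6-E7, 32 genes rose (0.352%) and 1 fell (0.0110%), 0.363% together, led by *Nes*, *Zcwpw1*, *Syce2*, *Slfn9*, *Uhrf1*, *Timeless*, *Fam111a* and *Mcm6*, and the count of 33 was 54 without E2, 3 without Y1 and 10 without Y2. None passed by edgeR without N1, N2 or E1, where 903, 719 and 484 had an unadjusted p under 0.05, and DESeq2 called 120 with all 7 libraries.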

How the data were processed

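Single-cell 3′ libraries of 8 tongue epithelia were used. The values deposited by the authors were raw UMI counts per gene and cell, made with Cell Ranger 5.0.0 (file headers) on mm10, and no normalization had been applied. Library totals ran from 46483469 to 102427359 UMIs. Groups came from the labels. The members and the gene lists were chosen with earlier results of these data known. No doublet caller was run, and the upper limits on genes and UMIs stood in for one. UMIs were summed per library over cells (at least 10) and tested with edgeR 4.0.16 quasi-likelihood fits (R 4.3.3; filterByExpr, TMM scaling; CPM beside these tests use the scaled library sizes), with both transgenes as terms or, in population cells, with the genotype as the group, and with Benjamini-Hochberg adjustment over all genes. Shares were compared by exact permutation of libraries (scipy 1.17.1). Alternatives were DESeq2 1.42.0, relative log expression scaling, no filter on low counts, other limits and markers, thinning, and leaving out each library.

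Named genes were the 6 markers; the 20 highest and 10 lowest genes beside other cells with the same sign in the 3 libraries; the 8 largest rises and falls of each contrast among called genes at 20 CPM or more without overlap; the 5 largest each way for each difference of effects; members of the lists; and the 5 genes that followed the marker sum. *Smc1b*, *Chil4*, *Syce2*, *H19* and list members given for their level are named outside or beside that rule after their values were seen. Coordinates are from GENCODE on GRCm38, which held 32235 of 32285 features. On simulated data with 200 genes changed 4-fold, 96.5% were recovered for E against N in population cells, 100% for the YAP effect in cells with at least 2 markers, and 99% for the difference of E6-E7 effects. With 2 residual degrees of freedom in population cells, the fits borrow most of their spread from other genes. Values of 2 genes that passed these rules are not reported here, and they stay in the counts.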

Additional observations from a re-analysis of the deposited data

Results flagged for a closer look

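*Prlr* in EY2, at 0.686 CPM over all non-cycling epithelial cells, lay far from the 3 other libraries with YAP1S127A, which were at 3.73 to 3.95 CPM. Its gap was 0.932 of the group's range, above the 95% limit of Dixon's test for 4 samples. Chance passes that limit in about 1 of 20 sets, and 12 sets of 4 libraries were examined. EY2 was also the library with 78.3% cycling cells, and the part of this in the value was not tested.

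Some genes passed the test of a difference in a transgene's effect between population and other cells, given on the log2 scale. For YAP the comparison rests on 1 library, the 13 population cells of Y1, which is assumed to vary like the others. *Plac8* (5.002), *Vsig10l* (4.33), *Plat* (4.31), *Runx1* (3.66) and *Sprr2a3* (3.15) had larger effects in population cells. *Plac8* was 0 to 10.2 CPM in population cells of the N and E libraries and 43.4 in Y1, and reads of *Sprr2a3* can be shared with near-identical neighbours. *Krt23* (−12.07), *Krt6b* (−4.66), *Krtdap* (−4.19), *Hlf* (−3.87) and *Krt32* (−2.16) had smaller ones, and *Krt23* was at 0 in population cells of Y1, so its estimate depends on the prior. *Krtdap*, a gene of differentiating keratinocytes, was 69.5 to 475 CPM in population cells of N and E libraries and 20.01 in Y1, against 386 to 588 and 679 in other cells. *Hlf* was 28.4 to 35.6 CPM and 3.34 in Y1, against 10.2 to 11.5 and 16.2. In population cells, with at least 3 markers, the call for *Hlf* was lost without N1, E1 or E2, at differences of −3.86 to −3.88. In cells with at least 2 markers, where Y2 and EY2 enter, *Hlf* alone of these 10 genes passed in the same direction. For the others, edgeR's adjusted p in that wider set is given in brackets. *Plac8* was then 1.66 (0.452), *Plat* 0.23 (1), *Runx1* 0.70 (0.861), *Sprr2a3* 2.22 (0.0576), *Krt23* −1.29 (0.875), *Krt6b* −0.74 (0.961) and *Krt32* −0.75 (0.749), and *Vsig10l* and *Krtdap* changed sign.

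For E6-E7, *Cxcl9* (7.89), *Ifit1* (2.36), *Isg15* (1.53), *Rpe* (1.22) and *Ly6d* (1.05) had larger effects in population cells. *Cxcl9* was at 0 in population cells of both N libraries, so its estimate is no measure of size, and *Ly6d* was 125 CPM in the 12 cells of N2 against 1326 in other cells. *Ly6g6c* (−9.39), *Chil4* (−4.03), *Krtap3-2* (−3.03), *Slpi* (−2.47) and *Efemp1* (−1.66) had smaller ones, where *Ly6g6c* was at 0 in population cells of both E libraries. *Efemp1*, a matrix glycoprotein gene, was 27.0 and 26.9 CPM in population cells of N1 and N2 and 5.94 and 9.27 in E1 and E2, against 18.8, 19.4, 13.5 and 20.7 in other cells. In cells with at least 2 markers none of these 10 genes passed (adjusted p of 0.561 to 1 by edgeR). The call for *Efemp1* was also lost against cells with no marker (0.0644) and without N1, E1, E2 or Y1 (0.163 to 1), and that for *Rpe* in all 7 alternatives (0.0583 to 1).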

How the results depend on the processing

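All 4 libraries with YAP1S127A had lower shares than all 4 without it when cells were not thinned, over the mean of 50 draws, and in the single draw with at least 2 markers, with no upper limits or with keratin at least 1%, but not in the single draw as reported, at 3000 UMIs, with at least 4 markers or with cycling cells in the denominator. The E6-E7 difference was 0.492 points without thinning and the YAP difference kept its sign under all alternatives, and with 1 library left out they ranged from −0.461 to 0.217 and from −0.882 to −0.203. For E against N in population cells the 50 calls were 15 by DESeq2, 182 with no filter on low counts, and 27 to 139 with 1 library left out. In cells with at least 2 markers the YAP calls were 633 by DESeq2, 1142 with no filter, 186 with 3 markers and no upper limits, and 68 to 351 with 1 library left out, and the E6-E7 calls were 120, 348, 66 and 0 to 54. These alternatives for cells with at least 2 markers were chosen after seeing the data, and the mean of 50 draws for the shares was not planned. The difference of YAP effects gave 11 calls against cells with no marker, 16 with at least 2 markers and 22 to 103 with 1 library left out, and that of E6-E7 effects 4, 1 and 4 to 115. The markers called for YAP were 4 of 6 with no filter and 1 to 3 with 1 library left out. Genes at least 2-fold higher beside other cells were 57 against cells with no marker, 37 after thinning and 84 with at least 4 markers (N1 alone), and 106 were 2-fold lower with at least 4 markers. The sign changed for *Krtdap* (0.17) and *Vsig10l* (−0.47) with at least 2 markers, without N1 for *Krt6b* (5.53; −4.83 at the other end with 1 library left out), *Slpi* (5.21 and −3.79), *Chil4* (1.70 and −5.51), *Cxcl9* (−2.36 and 8.41) and *Krtap3-2* (5.89 and −4.10), without N2 for *Ly6d* (−0.47 and 3.597), and for *Gm15987* (−0.0025) after thinning. The cause was not tested. Of the single-gene values under alternatives, 764 kept sign and call, 168 lost the call, 22 gained it, 41 moved and 9 changed sign. The effects of YAP alone and of both transgenes in population cells could not be fitted, since too few libraries held 10 cells, nor could E against N with at least 4 markers, with cells over 20000 UMIs left out or with 20 cells a library. No paired analysis was possible because the labels number animals and give no replicate numbers shared between groups.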
